A study of Mus musculus with 49 samples.

Results

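Transcripts of 8 transcription factors of the intestinal epithelium and its neighbouring endoderm, Cdx1, Cdx2, Hnf4g, Isx, Gata4, Gata5, Gata6 and Pdx1, were followed through mouse hepatocyte cultures and intestinal organoids. Each symbol paired with a single Ensembl identifier, so that 8 of the 46078 identifiers counted in 49 libraries of 16 conditions are described. Transcript 3′ ends had been counted with unique molecular identifiers by CEL-Seq2. The labels give all cells as wild type (WT) C57BL/6J. Hepatocytes came from livers of mice at 10 weeks of age and were taken fresh (FH, n = 3) or after 3 h, 1 day, 2 days, 4 days, 1 week or 2 weeks in medium with EGF (n = 3 each). A further set was kept for 1 week with verteporfin at 0.3 µM, a compound that disturbs the Yap-TEAD complex, or with its solvent DMSO (n = 2 each). Dedifferentiated hepatocytes grown in monolayer, termed dediHeps (n = 5), were compared with their re-differentiated aggregates (n = 3) and with spherical organoids (dediHep-SOs, n = 3), which grew in Matrigel with Wnt3a, CHIR99021, EGF, Noggin and R-spondin1. Budding organoids (dediHep-BOs, n = 3) had been formed by dediHeps carrying a retrovirus for Cdx2 and were moved to medium without Wnt3a and CHIR99021. The intestinal references were spherical organoids of fetal intestinal progenitor cells from embryos at E13.5 (FIPC-SOs, n = 3) and budding organoids of small intestinal crypts from mice at 10 weeks of age (ISC-BOs, n = 4). CLiPs (n = 3) are hepatocyte-derived cells obtained with Y-27632, A-83-01 and CHIR99021 without serum. The labels do not tie libraries to separate animals, except that shared culture names link some dediHep, aggregate and dediHep-SO libraries, so p-values measure the spread between these libraries.

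Cdx2 and Cdx1 are caudal-type homeobox factors. Cdx2 sets intestinal identity in the endoderm of the embryo and in the adult switches on genes of digestion and absorption. Gata4, Gata5 and Gata6 are zinc finger factors of the early endoderm. Gata4 is kept in the proximal small intestine and falls off toward the ileum, whereas Gata6 runs along the whole gut and also occurs in mesenchyme. Hnf4g is a paralogue of the liver and gut factor Hnf4a and acts with it in enterocytes. Isx is an intestine-restricted homeobox factor that holds down the uptake and cleavage of carotenoids. Pdx1 marks the pancreas and the proximal duodenum.

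Pdx1 and Cdx2 lie side by side on chromosome 5 of GRCm38 on opposite strands, at 147269959 to 147275848 and at 147300805 to 147307270. Gata5 lies on chromosome 2 at 180325133 to 180334699, Gata4 on chromosome 14 at 63198922 to 63271692, Hnf4g on chromosome 3 at 3508030 to 3658052 and Isx on chromosome 8 at 74873173 to 74893506. The 250 bases before the RefSeq start are shown for Cdx2 and Gata5 (GRCm38.p6), because these genes went from no or next to no counts in hepatocytes to high levels in dediHep-derived cells. The Cdx2 stretch is chr5:147307250-147307499 and the Gata5 stretch chr2:180334680-180334929, both on the minus strand.
Cdx2: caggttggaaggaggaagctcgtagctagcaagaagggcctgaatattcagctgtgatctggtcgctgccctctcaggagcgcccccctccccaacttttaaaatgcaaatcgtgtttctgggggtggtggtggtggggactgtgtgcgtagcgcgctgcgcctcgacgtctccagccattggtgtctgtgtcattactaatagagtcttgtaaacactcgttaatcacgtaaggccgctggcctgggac
Gata5: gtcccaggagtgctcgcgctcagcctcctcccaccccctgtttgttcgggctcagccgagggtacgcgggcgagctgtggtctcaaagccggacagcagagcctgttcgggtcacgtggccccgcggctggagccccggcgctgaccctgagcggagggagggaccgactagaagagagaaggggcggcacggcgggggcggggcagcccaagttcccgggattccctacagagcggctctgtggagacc
Both strands were searched for TTTAT, a word bound by Cdx factors, and GATAA, the core word of Gata factors, and any match would stand in capitals. Neither stretch held either word. Among 32841 RefSeq promoter stretches of the same length, 37.3% held TTTAT and 22.6% held GATAA, and no match says only that these letters are not in this window. The Gata5 stretch had 70.0% G and C with 22 CG steps and the Cdx2 stretch 55.2% with 13, beside medians of 52.4% and 6 over all stretches.

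Library totals ran from 861047 to 3872936 counts. Levels are given as CPM, the count scaled to a library total of 1000000, and values after ± are SDs between libraries. Since the assay counts 3′ ends with gene-specific efficiency, levels are compared within a gene and not between genes. Folds come from the quasi-likelihood test of edgeR with TMM normalization, over all genes kept by its count filter. Genes are termed called where the FDR is below 0.1 and the log2 fold change lies beyond 2 in either direction. Values after ± on the log2 scale are SEs. TMM factors were 0.633 to 0.735 in FH and 0.640 to 0.647 at 3 h but 0.875 to 1.25 in the other 43 libraries. Plain CPM therefore place FH and 3 h hepatocytes lower than TMM does, and leaving the factors out moved every log2 fold change against FH, other than that of 3 h, up by 0.49 to 0.84. Where a group has no count, a fold is given as a lower bound against 3 counts over the group, in plain CPM. FH libraries held the hepatocyte markers Alb, Ttr, Apoa1, Serpina1a, Tat and Cps1 with a sum of 11091 to 12482 CPM, but also 129.6 to 192.4 CPM of 6 liver endothelial markers and 44.0 to 149.5 CPM of 5 macrophage markers. In dediHep-SOs Alb and Tat were at 0, and in ISC-BOs the stem cell marker Olfm4 averaged 0.967 CPM, while Lgr5 averaged 137.1 CPM.

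**Figure D1:**
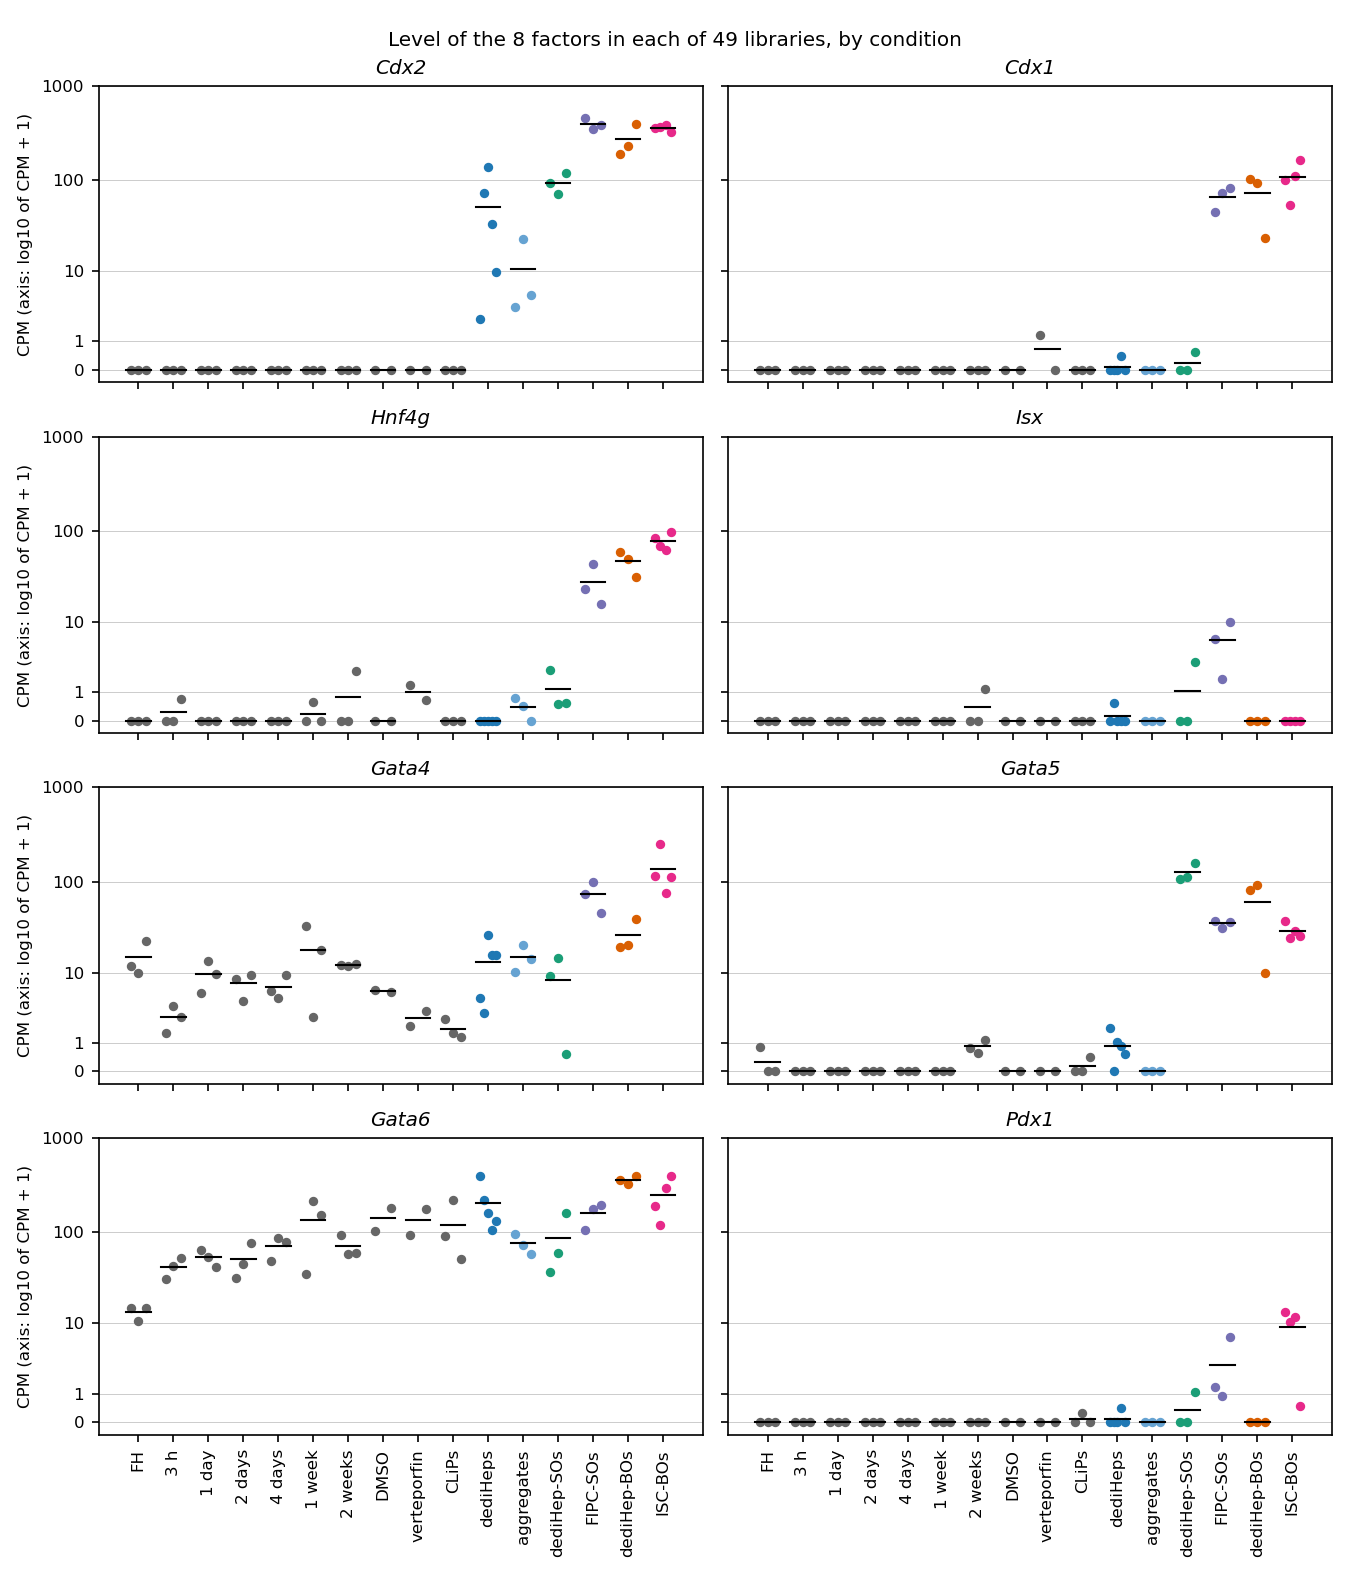
Level of each of the 8 factors in CPM (vertical axis, log10 of CPM + 1) in 49 libraries, by condition. Points are libraries and bars group means. Cdx2 is at 0 up to the CLiPs and appears in dediHeps, Cdx1 and Hnf4g stand out in FIPC-SOs and in both kinds of budding organoids, Gata5 is highest in dediHep-SOs, and Gata6 has counts in every library.

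Cdx2 separated dediHeps from fresh hepatocytes, the time points, the verteporfin and DMSO cultures and CLiPs. It had no count in any of the 28 libraries of FH, the 6 time points, verteporfin, DMSO and CLiPs, which together hold 53813336 counts and allow a level of up to 0.0557 CPM. The 5 dediHep cultures held 2.45, 73.4, 138.7, 33.7 and 9.69 CPM. All 5 were above the hepatocytes, yet the highest and the lowest culture were far apart. The lowest, with 4 counts, lay under the level of 3 counts in the smallest FH library (2.48 CPM) and the smallest 2-week library (3.48 CPM). It is therefore not resolved from these libraries taken singly. Against FH the mean of 51.6 ± 56.0 CPM was at least 68.5-fold higher (edgeR FDR 0.0121). Of the 8 factors, 3 passed the count filter in this comparison and 2 were called higher, Cdx2 and Gata6, while 25.7% of all genes tested were called. Cdx2 passed the filter there only through the dediHeps, so its call is a description. Against CLiPs dediHeps were at least 140-fold higher (FDR 0.0504), a call that was lost without CLiP replicate 1 (FDR 0.165) or dediHep replicate 2 (FDR 0.106). Gata4 was the other member called lower in CLiPs, and 3.04% of all genes were called there. In this comparison too, Cdx2 passed the filter only through the dediHeps.

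In aggregates, in which Alb and other hepatocyte genes were higher than in dediHeps, Cdx2 was at 3.67, 22.9 and 5.21 CPM. The aggregate and dediHep ranges overlapped. The log2 fold change was -2.05 ± 1.07 and missed the threshold (FDR 0.205) in a test that did not pair the cultures. With a block by culture name, 0 of 3 factors were called as well. By edgeR 0 of 3 tested factors were called, beside 9.51% of all genes, with Gata6 alone at an unadjusted p under 0.05 (0.0208). DESeq2 called 1 factor, Cdx2 (log2 -2.07, FDR 0.0971), and so did edgeR without dediHep replicate 1 (log2 -2.35, FDR 0.0908). The culture names follow 3 cultures into aggregates. In the culture with 73.4 CPM Cdx2 was 22.9 CPM after aggregation, in the culture with 33.7 CPM it was 5.21 CPM, and the culture with 2.45 CPM held 3.67 CPM. Both cultures with more than 10 CPM in monolayer were lower as aggregates. Compared with FH, the aggregates still held Cdx2 in all 3 libraries, at least 14.1-fold above the FH limit, but Cdx2 was removed by the count filter. Of the 2 factors tested there, Gata6 and Gata4, 0 were called by edgeR and 0 by DESeq2, beside 16.6% of all genes, and Gata6 had an unadjusted p under 0.05.

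Spherical organoids had an even Cdx2 level. The dediHep-SOs held 93.1, 70.8 and 119.6 CPM, 94.5 ± 24.4 on average, a range inside that of the dediHeps, and the fold against dediHeps was not called (log2 0.90 ± 0.84, FDR 0.545). Of 4 factors tested in that comparison, 1 was called, Gata5, beside 8.76% of all genes. Gata5 passed the filter there only through the dediHep-SOs, so its call is a description. Under shared culture names, the order of Cdx2 levels was not the same in monolayer and in organoids. These pairs did not deviate alike from their group means over all genes compared (correlations of -0.48 to 0.03). A shared name therefore does not show that a monolayer library is the start of an organoid library. The name with the lowest monolayer level had 93.1 CPM in organoids, and the name with the highest had 70.8 CPM. Against FH, dediHep-SOs were at least 126-fold higher in Cdx2 (FDR 3.54e-05), and 2 of 4 tested factors were called, beside 29.2% of all genes. Both, Cdx2 and Gata5, passed the filter only through the dediHep-SOs, so these calls are a description.

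**Figure D2:**
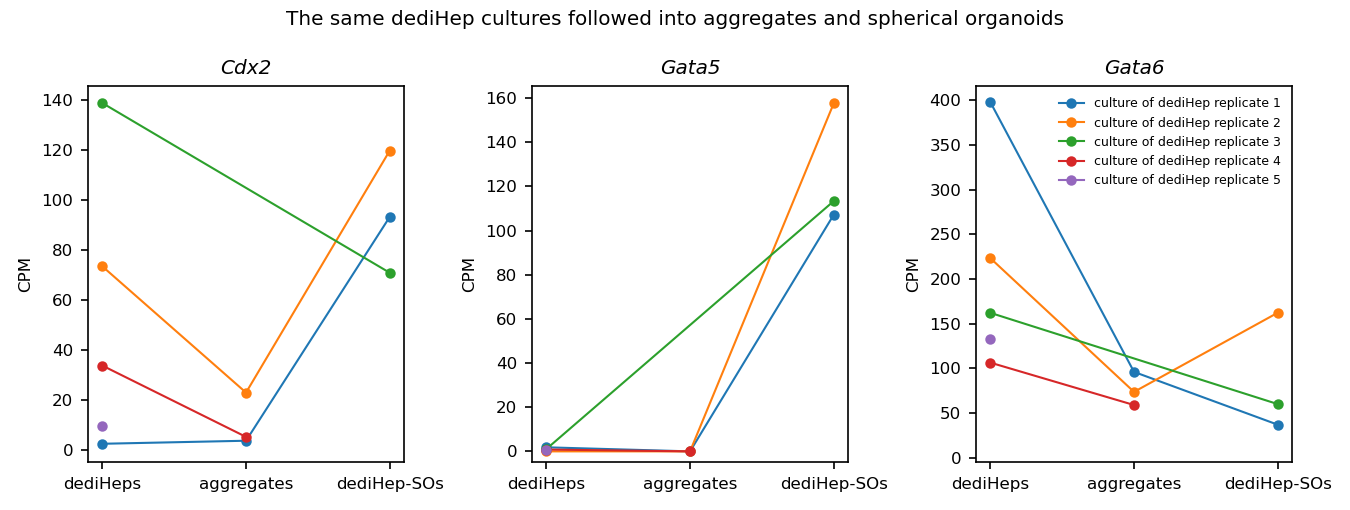
Cdx2, Gata5 and Gata6 in CPM (vertical axes from 0) in dediHeps, aggregates and dediHep-SOs, with lines joining libraries that share a culture name. Gata5 was between 107.1 and 157.6 CPM in all 3 dediHep-SOs and at most 1.84 CPM in dediHeps and aggregates. Cdx2 was higher in organoids than in dediHeps under 2 of the 3 shared names and lower under the name with the highest dediHep level.

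In budding organoids from dediHeps, 1 of 3 libraries lay within the Cdx2 range of the intestinal references. The 3 dediHep-BOs held 190.7, 233.3 and 394.8 CPM of Cdx2, the FIPC-SOs 462.7, 346.4 and 389.5 CPM and the ISC-BOs 358.5, 366.7, 388.0 and 323.4 CPM. Replicates 1 and 2 of the dediHep-BOs lay below all reference libraries and replicate 3 lay among them. The log2 fold change of dediHep-BOs against ISC-BOs was -0.45 ± 0.25 (FDR 0.304) and that against dediHep-SOs 1.49 ± 0.32 (FDR 0.00813), a difference past the FDR threshold but under the fold threshold. Counts at the 3′ end do not show which of these transcripts came from the chromosome and which from the retrovirus, so the Cdx2 level of dediHep-BOs is that of both, and they cannot be told apart. The dediHep-SOs lay below the FIPC-SOs by a log2 fold change of -1.96 ± 0.29 (FDR 0.00165), which is just inside the fold threshold of 2. Without 1 library, this value ran past 2 in 3 of 6 cases (without FIPC-SO replicate 2 or 3 or dediHep-SO replicate 3). FIPC-SOs and ISC-BOs did not differ beyond their spread (log2 -0.01 ± 0.20, FDR 0.985). In order of mean plain CPM came FIPC-SOs (399.5 ± 58.8 CPM), ISC-BOs (359.1 ± 26.9), dediHep-BOs (272.9 ± 108), dediHep-SOs (94.5 ± 24.4), dediHeps (51.6 ± 56.0) and aggregates (10.6 ± 10.7). Of the neighbours in this order, all of which were tested, only dediHep-BOs and dediHep-SOs differed at an FDR under 0.1, and they did so under the fold threshold. With TMM scaling over all libraries the ISC-BOs (344.6 CPM) came before the FIPC-SOs (332.6 CPM).

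Cdx1, itself a gene that Cdx2 is known to act on, did not follow Cdx2 in dediHeps or dediHep-SOs. It had 1 count in 1 of 5 dediHep libraries, 1 count in 1 of 3 dediHep-SO libraries, 2 counts in 1 verteporfin library and none in FH, the time points, aggregates or CLiPs. The dediHep-BOs held 103.4, 93.3 and 23.9 CPM, the FIPC-SOs 46.1, 72.4 and 81.9 CPM and the ISC-BOs 100.1, 53.9, 110.1 and 166.2 CPM. Every library of these 3 groups lay above every other library of the series. Against dediHep-SOs, dediHep-BOs had 428 counts to 1, a ratio of 490 with an exact 95% counting interval of 87.6 to 19415 (FDR 0.00021). Against FIPC-SOs, dediHep-SOs had 1 count to 470, a ratio of 458 with an interval of 81.8 to 18119 (FDR 0.000101). Between dediHep-BOs and ISC-BOs the log2 fold change was -0.58 ± 0.48 (FDR 0.482). The share of Cdx1 among the summed counts of Cdx1 and Cdx2 was 35.2%, 28.6% and 5.71% in dediHep-BOs, 9.05% to 17.4% in FIPC-SOs and 12.8% to 34.0% in ISC-BOs. Replicate 3 of the dediHep-BOs, with the most Cdx2 of its group, had the least Cdx1.

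Hnf4g had a like pattern. It had no count in FH or dediHeps, 1 count in each of 2 aggregate libraries, and 7, 1 and 1 counts in dediHep-SOs, which is 2.39, 0.506 and 0.527 CPM. In dediHep-BOs it was at 59.8, 49.7 and 31.6 CPM, in FIPC-SOs at 23.5, 44.4 and 16.1 CPM and in ISC-BOs at 83.1, 68.9, 62.9 and 96.8 CPM. The dediHep-BOs overlapped the FIPC-SOs but lay under all ISC-BOs. The rise from dediHep-SOs to dediHep-BOs was called (log2 5.10 ± 0.56, FDR 0.000201), dediHep-SOs were lower than FIPC-SOs (log2 -4.27 ± 0.65, FDR 0.00204), and dediHep-BOs and ISC-BOs did not differ by the test (log2 -0.77 ± 0.30, FDR 0.159). Its paralogue Hnf4a had counts throughout, with a mean of 257.5 CPM in FH and 95.1 CPM in dediHep-SOs. Hnf4g made up 7.87% to 13.52% of the summed Hnf4a and Hnf4g counts in dediHep-BOs, 14.0% to 21.04% in ISC-BOs and 0.503% to 2.27% in dediHep-SOs.

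The step from spherical to budding organoids was larger for Cdx1 and Hnf4g in cells from dediHeps than in cells from intestine. In the intestinal cells the step compares FIPC-SOs with ISC-BOs, whose log2 fold changes were 0.83 ± 0.36 for Cdx1 (FDR 0.188) and 1.63 ± 0.37 for Hnf4g (FDR 0.0137, under the fold threshold). The difference between the steps was 7.58 ± 1.05 for Cdx1 (FDR 0.000545), 3.44 ± 0.68 for Hnf4g (FDR 0.00589) and 1.48 ± 0.37 for Cdx2 (FDR 0.0216) on the log2 scale. The first 2 of 7 factors tested were called for this difference, and 9.45% of all genes were called. The Cdx1 value rests on a group with 1 count, so its size depends on the prior count of the fit. The dediHep-BOs differ from the dediHep-SOs both in the Cdx2 virus and in the medium, and the intestinal groups differ in age of the donor and in medium, so these cannot be told apart.

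**Figure D3:**
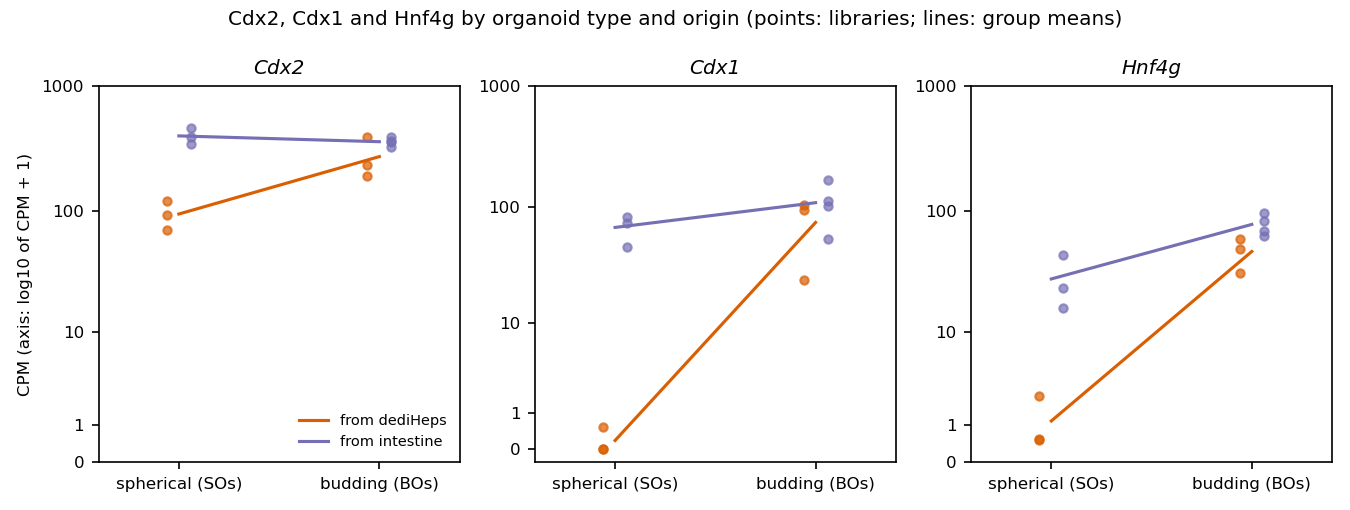
Cdx2, Cdx1 and Hnf4g in CPM (vertical axis, log10 of CPM + 1) in spherical and budding organoids derived from dediHeps or from intestine. Points are libraries and lines join group means. Cdx1 and Hnf4g sit near 0 in dediHep-SOs only, and in budding organoids the dediHep-derived means lie below those of ISC-BOs for all 3 factors.

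Of the 6 factors tested between dediHep-BOs and dediHep-SOs, 3 were called higher in budding organoids, Cdx1, Hnf4g and Gata6, beside 11.3% of all genes. Between dediHep-SOs and FIPC-SOs 3 of 6 were lower, Cdx1, Hnf4g and Gata4, beside 8.91%. Between dediHep-BOs and ISC-BOs 2 of 7 were lower, Gata4 and Pdx1, beside 3.05%. Between ISC-BOs and FIPC-SOs 0 of 7 were called by edgeR, beside 6.62%, with Hnf4g, Gata4 and Cdx1 at an unadjusted p under 0.05 and 0 calls by DESeq2. Against FH, 5 of 6 were higher in FIPC-SOs (30.3% of all genes called), 5 of 6 in dediHep-BOs (27.7%) and 7 of 7 in ISC-BOs (28.1%). These 3 comparisons share the FH libraries. The factors that passed the filter against FH mostly did so through the organoids, so their counts are a description. The same holds for Cdx1 and Hnf4g between dediHep-BOs and dediHep-SOs, which passed only through the dediHep-BOs. Between dediHep-SOs and FIPC-SOs these factors passed only through the FIPC-SOs. Pdx1 passed between dediHep-BOs and ISC-BOs only through the ISC-BOs. The shares called in these comparisons therefore cannot be read as an excess over all genes.

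**Figure D4:**
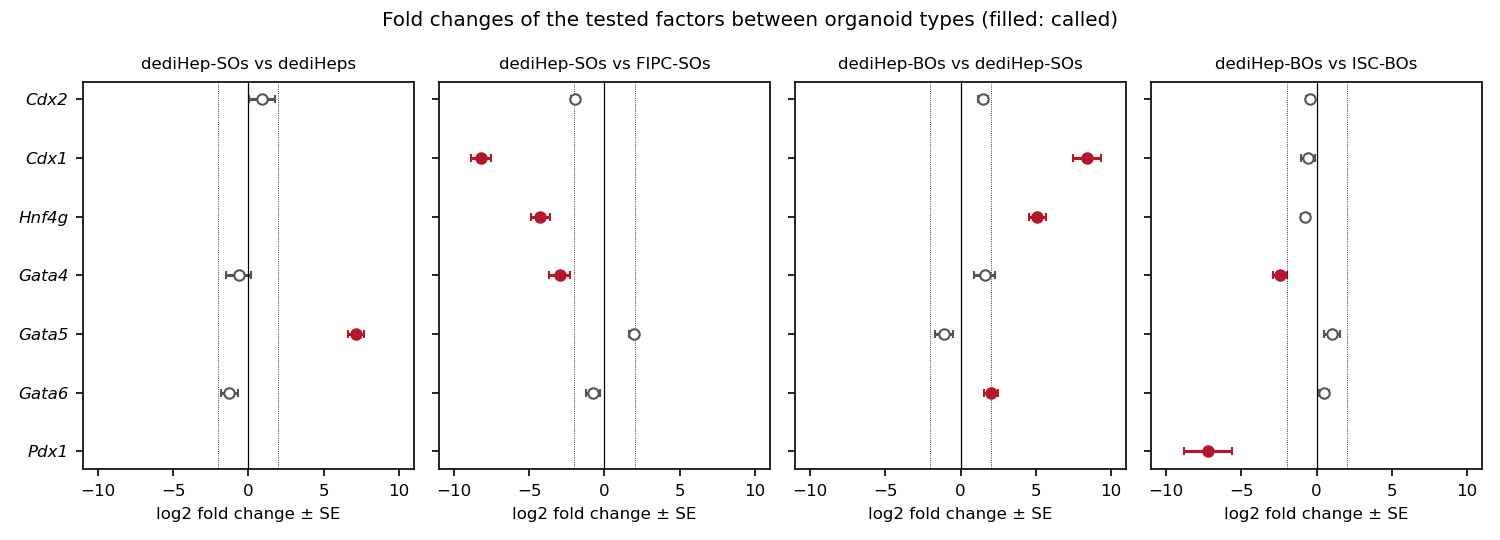
Log2 fold change with SE (horizontal axis) of the factors that passed the count filter in 4 comparisons. Filled red points were called, open points were not, and dotted lines mark a log2 fold change of 2 in either direction. Gata4 and Pdx1 are the called points in dediHep-BOs against ISC-BOs, at -2.45 and -7.23. The Cdx1 and Pdx1 points far from 0 rest on a group with 1 count or none, so their fitted size depends on the prior count of the fit.

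Gata4 was present in fresh hepatocytes and was at higher CPM in both intestinal references, with a call against FH for ISC-BOs. FH held 12.0, 9.91 and 23.0 CPM, and 3 h after plating 1.53, 3.95 and 2.74 CPM were left, a drop of -2.35 ± 0.71 on the log2 scale (FDR 0.0341). The call at 3 h was lost without FH replicate 3 (FDR 0.162) or 3 h replicate 1 (FDR 0.115). The 6 liver endothelial markers, all detected in both groups, summed to 129.6 to 192.4 CPM in FH and 34.9 to 71.7 CPM at 3 h, and Clec4g averaged 106.8 and 26.4 CPM. The 5 macrophage markers summed to 44.0 to 149.5 CPM in FH and 0.765 to 2.74 CPM at 3 h, where Cd5l, Vsig4 and Adgre1 were at 0, and the 7 stellate and mesenchymal markers to 50.5 to 143.2 CPM and 17.1 to 17.8 CPM, where Col1a1 and Pdgfrb were at 0. Their part in the result was not tested. Fewer cells of a type and less RNA per cell cannot be told apart in these bulk libraries. At 3 h, 1 of the 2 factors tested was called, beside 6.91% of all genes. Later time points held 6.81 ± 2.34 CPM at 4 days (log2 -2.02 ± 0.63, FDR 0.0128) and 12.3 ± 0.440 CPM at 2 weeks, with 1 of 2 factors called at 4 days (23.8% of all genes). By edgeR and by DESeq2 0 of 2 were called at 1 day (17.4%), 2 days (21.3%) and 2 weeks (29.5%), with both factors at an unadjusted p under 0.05 at 1 day and 2 days and Gata6 alone at 2 weeks. The 4-day value sat at the fold threshold, was -1.15 (FDR 0.109) with plain library totals, and was under the fold threshold without any 1 of 6 libraries of the time course fit (log2 -1.54 to -1.96), FH replicate 3 giving the smallest value.

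In ISC-BOs Gata4 was at 113.8, 249.5, 76.3 and 113.1 CPM and in FIPC-SOs at 73.9, 99.0 and 46.4 CPM, all above FH. The fold of FIPC-SOs against FH was 1.30 ± 0.46 on the log2 scale (FDR 0.038), under the fold threshold, and 2.28 with plain library totals. The dediHep-BOs, at 19.4, 20.6 and 39.2 CPM, lay under every library of both, and dediHep-SOs at 9.21, 14.7 and 0.527 CPM lay under the dediHep-BOs. Against ISC-BOs dediHep-BOs were lower by a log2 fold change of -2.45 ± 0.46 (FDR 0.0109). Without ISC-BO replicate 2, the highest library, the value was -1.96 (FDR 0.00449), and the fold of ISC-BOs against FH went from 2.40 ± 0.50 (FDR 0.00198) to 1.96. The dediHep-SOs were lower than FIPC-SOs (log2 -2.97 ± 0.71, FDR 0.0195). Against FH the dediHep-BOs stood at -0.01 ± 0.45 (FDR 0.992) with TMM and at 0.81 with plain library totals, so no direction can be given. CLiPs held 2.58, 1.55 and 1.28 CPM, under every FH and every dediHep library. They were lower than FH (log2 -3.73 ± 0.58, FDR 0.00174) and lower than dediHeps (log2 -2.82 ± 0.77, FDR 0.0915). The call against dediHeps was lost without any 1 of the 3 CLiP libraries or dediHep replicate 5 (FDR 0.153 to 0.231). Both factors tested between CLiPs and FH were called, Gata4 lower and Gata6 higher, beside 24.5% of all genes.

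Gata5 was nearly silent before organoid culture and was highest in dediHep-SOs. FH had 1 count, the time points up to 1 week none, 2-week hepatocytes 2, 1 and 1 counts, aggregates none and dediHeps 3, 0, 3, 2 and 1 counts. The dediHep-SOs held 107.1, 113.3 and 157.6 CPM. No dediHep-SO library overlapped any library outside the group. The rise from dediHeps was called at a log2 fold change of 7.15 ± 0.52 (FDR 1.82e-05). FIPC-SOs held 38.1, 32.0 and 37.1 CPM and ISC-BOs 38.1, 24.8, 29.6 and 25.9 CPM, which overlap (log2 -0.13 ± 0.27, FDR 0.833). The dediHep-SOs were above FIPC-SOs by 1.95 ± 0.29 on the log2 scale (FDR 0.00199), just inside the fold threshold, which was crossed without FIPC-SO replicate 1 (2.04) or dediHep-SO replicate 1 (2.06). The dediHep-BOs held 80.8, 91.8 and 10.0 CPM, and replicate 3 lay under every other organoid library. Against dediHep-SOs the log2 fold change was -1.08 ± 0.60 (FDR 0.193), or -0.54 (FDR 0.248) without replicate 3. Without it the fold against ISC-BOs went from 1.00 ± 0.54 (FDR 0.291) to 1.502 (FDR 0.0148).

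Replicate 3 of the dediHep-BOs also differed from its group in other genes. Its 7 stellate and mesenchymal markers summed to 4.78 CPM, beside 219.8 and 191.7 CPM in replicates 1 and 2, where Col3a1 was at 151.9 and 105.4 CPM. Its 4 enteroendocrine markers summed to 130.6 CPM beside 442.7 and 524.4 CPM. FIPC-SO replicate 3 held 461.8 CPM of the mesenchymal list, beside 12.0 and 4.44 CPM in replicates 1 and 2, and its Gata5 level of 37.1 CPM lay between theirs. In dediHep-SOs, with the highest Gata5, the mesenchymal list summed to 0 to 1.36 CPM, and in ISC-BOs, with 2 of its 7 genes detected, to 2.57 to 8.62 CPM with Col1a1 and Col3a1 at 0. These lists are sums of marker RNA and do not count cells. Their part in the dediHep-BO values of Gata5, Gata6 and Cdx1 was not tested.

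Gata6 had counts in all 49 libraries and was higher in culture than in fresh hepatocytes. FH held 15.2, 10.7 and 15.1 CPM, and 3 h after plating 31.4, 43.4 and 53.5 CPM were counted. All cultured and organoid libraries lay above the FH range. The log2 fold change was 1.73 ± 0.48 at 3 h (FDR 0.0229), between 1.10 and 1.66 at 1 day, 2 days, 4 days and 2 weeks with FDR of 0.00599 to 0.0707, and 2.38 ± 0.47 at 1 week (FDR 0.000302). With the fold threshold only the 1-week value was called, 1 of 2 factors tested beside 25.9% of all genes. The 1-week libraries spread from 35.7 over 153.2 to 215.4 CPM, and without replicate 2 the value was 1.84 and no longer called. Verteporfin gave 92.8 and 178.5 CPM and DMSO 104.4 and 182.7 CPM, which overlapped (log2 -0.06 ± 0.36, FDR 0.978). Gata6 was the 1 factor tested there, 0 of 1 was called by edgeR and by DESeq2 and none had an unadjusted p under 0.05, beside 0.269% of all genes. Gata4 had 3 and 5 counts with verteporfin and 9 and 10 with DMSO, under the count filter.

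The dediHeps held 397.7, 223.3, 162.2, 106.5 and 133.1 CPM of Gata6, all above FH (log2 3.03 ± 0.53, FDR 0.000921). Aggregates at 96.2, 73.8 and 59.2 CPM lay under all dediHep libraries (log2 -1.20 ± 0.44, FDR 0.0911, under the fold threshold). The dediHep-SOs spread over 37.2, 60.2 and 162.3 CPM, whereas the dediHep-BOs lay close together at 360.3, 327.2 and 392.8 CPM, all above the dediHep-SOs (log2 2.04 ± 0.45, FDR 0.0093). This fold fell under the threshold of 2 without dediHep-SO replicate 1 (1.70) or replicate 2 (1.88). The dediHep-BOs overlapped the ISC-BOs, at 189.5, 118.5, 296.0 and 393.3 CPM (log2 0.50 ± 0.33, FDR 0.382). CLiPs held 90.9, 221.3 and 52.0 CPM, above FH (log2 2.41 ± 0.55, FDR 0.0103), or 1.77 and not called without replicate 2. The balance of the family thus differed between conditions. Gata4 made up 44.1% to 60.3% of the summed Gata4 and Gata6 counts in FH, 20.5% to 67.8% in ISC-BOs, 5.11% to 9.08% in dediHep-BOs and 0.695% to 2.76% in CLiPs. Gata5 made up 49.3% to 74.2% of the summed Gata5 and Gata6 counts in dediHep-SOs and 6.17% to 26.5% in the intestinal organoids.

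Isx and Pdx1 were found mainly in the intestinal references. Isx had 14, 4 and 25 counts in the 3 FIPC-SOs, which is 6.20, 1.78 and 10.1 CPM, 6 counts in dediHep-SO replicate 3, and at most 1 count in any other library. It had none in dediHep-BOs, with a limit of 0.505 CPM, or ISC-BOs, with a limit of 0.362 CPM. FIPC-SOs were at least 16.6-fold above ISC-BOs. Isx did not pass the count filter in any comparison of the main fits, so none of these tested its fold. Pdx1 had 24, 24, 25 and 1 counts in ISC-BOs, or 13.7, 10.3, 11.9 and 0.479 CPM, 3, 2 and 17 counts in FIPC-SOs and none in dediHep-BOs. Replicate 4 of the ISC-BOs stood apart with its single count. ISC-BOs were at least 18.0-fold above dediHep-BOs (FDR 0.032), a call that missed the threshold without dediHep-BO replicate 2 (FDR 0.1004). Without any 1 of ISC-BO replicates 1 to 3, Pdx1 fell under the count filter and had no test. Of 6 pancreas markers, Ptf1a and Cpa1 had no count in ISC-BOs, and the list summed to 1.92 to 3.98 CPM there. In FH, the time points and aggregates, Pdx1 had no count.

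Known target genes of Cdx2 were followed as 2 lists, chosen with earlier results of these data known. The study names 7 adult targets, which encode proteins of the brush border and of fat handling (Alpi, Fabp1, Fabp2, Lct, Sis, Mep1b and Mttp), and since it names them for these samples, they are no independent evidence. From dediHep-SOs to dediHep-BOs, 6 of the 6 tested were called higher, with a median log2 fold change of 9.47, or 8.02 with genes at 0 set to their bound, beside -0.00 over all genes, and 11.3% of all genes were called there. At least 3 of these 6 had no count in dediHep-SOs and passed the filter only through the dediHep-BOs, so their calls are a description. Sis, the sucrase-isomaltase of the brush border, had no count in dediHep-SOs and 337.2, 159.1 and 125.8 CPM in dediHep-BOs. From FIPC-SOs to ISC-BOs all 7 were called higher as well (median 4.24 beside -0.03 over all genes, of which 6.62% were called). Cdx2 was at like levels in these groups, which differ in donor age and medium, and its part in the rise was not tested. Between dediHep-BOs and ISC-BOs none of 7 was called (median -0.63), beside 3.05% of all genes. Fabp1, Fabp2 and Mttp are also liver genes, and FH, without Cdx2, held 1197 CPM of Fabp1. A second list of 4 targets, Cdh17, Gucy2c, Muc2 and Heph, summed to 154.8 to 203.9 CPM in dediHep-SOs, 1089 to 1303 CPM in dediHep-BOs, 712.8 to 908.2 CPM in FIPC-SOs and 1098 to 1227 CPM in ISC-BOs. From dediHep-SOs to dediHep-BOs 4 of 4 were called higher (median 3.02), beside 11.3% of all genes, and from FIPC-SOs to ISC-BOs none of 4 was called (median 0.39), beside 6.62%.

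Within the dediHeps, Alpi and Cdh17 are given for the cultures with the most and the least Cdx2, as a description. Other cultures and targets are not given here, so a relation of target level to Cdx2 was not tested. Replicate 3 had 138.7 CPM of Cdx2, 152.7 CPM of Alpi, the intestinal alkaline phosphatase, and 293.1 CPM of Cdh17, an intestinal cadherin. Replicate 1, with 2.45 CPM of Cdx2, had no count of Alpi and 22.7 CPM of Cdh17. Replicate 3 was also the deeper library (2848505 counts, beside 1631842) and had 1199 counts of Hnf4a, beside 233 in replicate 1. Against FH, Cdh17 was called in dediHeps (FDR 0.00105), but it also averaged 16.2 CPM at 1 week and 88.8 CPM at 2 weeks, where Cdx2 had no count.

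**Figure D5:**
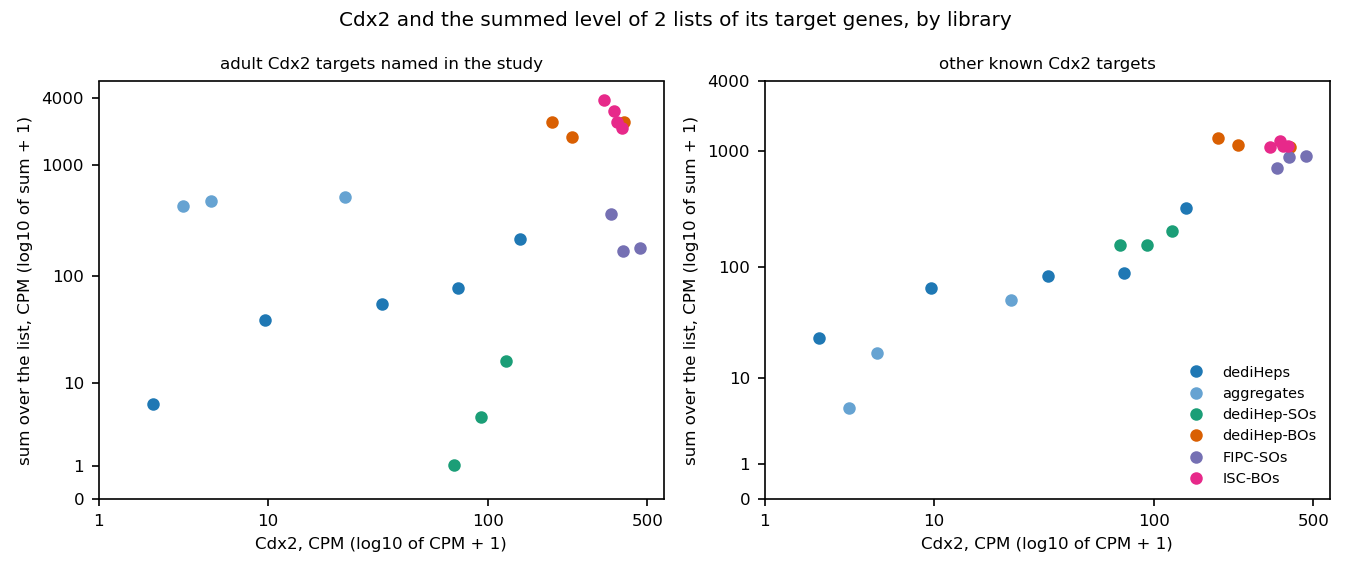
Cdx2 (horizontal axis) against the summed level of 7 adult targets named in the study (left) and of 4 other targets (right), in CPM on axes of log10 of the value + 1. Each point is a library of 6 conditions. On the left FIPC-SOs, at 167.1 to 362.0 CPM, lie far below ISC-BOs, at 2176 to 3875 CPM, at like Cdx2 levels. The link between Cdx2 and target level was not tested.

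Of 8 further Cdx, ParaHox and Gata genes and Gata cofactors, 3 passed the filter between dediHeps and FH and 2 were called higher, the haematopoietic and endothelial factor Gata2 (FDR 0.0052) and the Gata cofactor Zfpm2 (FDR 0.0307), beside 25.7% of all genes. Gata2 held 10.9 to 134.8 CPM in dediHeps, 1 count in FH and no count in dediHep-SOs, while 2 of the 6 liver endothelial markers were detected in dediHeps, with a list sum of 0 to 1.02 CPM, and Stab2, Clec4g, Kdr and Cdh5 were at 0. Zfpm2 averaged 26.3 CPM in dediHeps and had 2 counts in FH. Both Gata2 and Zfpm2 passed the filter only through the dediHeps, so these calls are a description. Cdx4 and Gsx2 had no count in FH, dediHeps or any organoid group. Of 14 partner factors of the endoderm, 2 were called higher in dediHeps than in FH, Klf5 and Elf3, and 4 lower, Creb3l3, Nr5a2, Onecut1 and Prox1 (median -0.58), again beside 25.7% of all genes. From dediHep-SOs to dediHep-BOs 2 of 13 were called higher, the lipid regulator Creb3l3 (log2 7.99 ± 0.58, FDR 2.4e-05) and Nr5a2 (log2 2.13 ± 0.38, FDR 0.00303), with a median of 0.14 beside -0.00 over all genes and 11.3% of all genes called. Of 2 genes held down by Isx, Bco1, the enzyme that cleaves carotene, was at 53.4 CPM in ISC-BOs and 1.30 CPM in FIPC-SOs (log2 5.46 ± 0.67, FDR 0.000343), and Scarb1 was not called there. The dediHep-BOs, which had no Isx count either, held 7.77 CPM of Bco1, lower than ISC-BOs (log2 -2.81 ± 0.70, FDR 0.0422), and their Scarb1 was lower at an FDR under 0.1 but under the fold threshold (log2 -1.46 ± 0.34, FDR 0.0308). Of 2 ileal genes held down by Gata4, Fabp6 averaged at most 1.01 CPM in every organoid group and Slc10a2 at most 7.10 CPM, and neither was called between organoid groups where it passed the filter. Of 5 stomach markers, 2 were tested between dediHep-BOs and dediHep-SOs. Both, Tff1 and Tff2, were called lower in dediHep-BOs, beside 11.3% of all genes, and Sox2, Gkn1 and Gkn2 had no test. In dediHep-SOs Tff2, a mucosal peptide of the stomach, stood at 36.9 to 40.9 CPM.

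The genes most like each factor were sought by the correlation of log2(mean CPM + 1) over the 16 conditions, among 12748 genes that reached 10 CPM in at least 1 condition, as a description. The conditions share libraries of unequal depth, and a gene absent from all but 3 conditions will match any other such gene. For Cdx2 the top gene was 2010300C02Rik (r = 0.993), followed by Calml4 (0.985) and Gpa33 (0.980), and without the dediHep-BOs 2010300C02Rik and Calml4 were again at the top with 0.992 and 0.983. For Cdx1 the top genes were Reg4, Defa3 and Defa17 (0.996 each), for Hnf4g Myb (0.994), Myrfl (0.993) and Lrrc31 (0.990), and for Gata5 Serpinb5 (0.993), Slc44a4 (0.987) and Kcnn4 (0.987). Gata6 came closest to Gm8822 (0.954), Actr3 (0.9499) and 5031425E22Rik (0.943). Gata4 had no close match, with Nectin3 (0.884), Syde2 (0.858) and Fbln1 (0.856). Isx and Pdx1 did not reach 10 CPM in any condition mean and were not compared. Defensins share sequence with near copies, so their separate counts are uncertain.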

How the data were processed

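The authors deposited 1 table of UMI counts (whole numbers, not normalized) per Ensembl gene for 49 libraries made with CEL-Seq2, and their processing notes name bcl2fastq 2.20, Bowtie2 2.3.1 and HTSeq 0.6.0 with GRCm38. The annotation release and any filter on libraries are not given in the sources used here. Every column was matched to a sample by its description and 0 columns were left out. Symbols came from GENCODE M21 for 45143 of 46078 identifiers. The members, gene lists and comparisons were chosen with earlier results of these data known.

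The 15 comparisons of 2 groups were fitted on their own libraries and the 6 time points with FH in 1 fit, with edgeR 4.0.16 in R 4.3.3 (quasi-likelihood test, TMM, filterByExpr with a minimum count of 10 and a minimum total of 15, Benjamini-Hochberg adjustment over all genes tested). The fits were tested on simulated counts with known changes. The test of the difference between organoid steps and the scaling by library totals were added after the counts were seen. Alternatives were RLE, DESeq2 1.42.0, no count filter, all libraries in 1 fit, no fold threshold, a correction for shared UMI sequences (6 bases), a replicate block and leaving out each library. Counting intervals are exact at 95% and, like the floor of 3 counts (0.775 to 3.48 CPM per library), cover counting error only. The highest count of a factor in a library was 1045. No 2 libraries were identical, and replicates differed by 5.62 to 68.0 in chi-square per degree of freedom. Pairing was checked by correlating deviations from group means: culture names paired aggregates with dediHeps (0.18 to 0.34), whereas dediHep-SOs of shared cultures did not deviate with their dediHeps (-0.48 to 0.03). The genes named are the 8 factors, called members of the lists, and the 3 genes most like each factor. Strand use in counting is not given, so reads of overlapping antisense genes cannot be told apart. A list of colon factors is not reported here.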

Additional observations from a re-analysis of the deposited data

Results flagged for a closer look

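In dediHeps (n = 5), single libraries stood apart by their gap to the others for Cdx1 (0.416 CPM), Isx (0.528 CPM) and Pdx1 (0.416 CPM), each being 1 count in a library beside 4 libraries with none. A single count beside 4 libraries with none is always flagged by this rule, so the flag says nothing more, and 1 count carries no level.

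The change from spherical to budding organoids differed between cells from dediHeps and cells from intestine by a test of the difference itself for Cdx1 (7.58 on the log2 scale), Hnf4g (3.44) and Cdx2 (1.48). The first 2 were past both thresholds, and Cdx2 was past the FDR threshold only. The Cdx2 value of the dediHep-BOs includes transcripts of the retrovirus.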

How the results depend on the processing

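Of 1470 recomputed values of the 86 member fold changes, 1386 kept direction and side of the thresholds, 26 lost a call, 40 gained one and 18 changed sign. Cdx2 between ISC-BOs and FIPC-SOs went from -0.01 to 0.019 with all 49 libraries in 1 fit, 0.0077 with DESeq2, 0.0075 with RLE, 0.0056 without the count filter and 0.057 with the replicate block, and ran from -0.119 to 0.173 when single libraries were left out. Gata4 against FH went with library totals from -0.57 to 0.28 at 1 week, from -0.63 to 0.021 in aggregates and from -0.01 to 0.81 in dediHep-BOs, and in the last to 0.11 without the filter, 0.017 with the block and -0.39 to 0.41 when single libraries were left out. Leaving out single libraries gave -0.071 to 1.13 for the difference of the organoid steps of Gata4 (0.50 with all) and -0.56 to 0.39 for Gata6 between verteporfin and DMSO (-0.06 with all).

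Counts of factors called changed as follows, and the cause was not tested except that no fold threshold admits smaller changes. Without it, 1 was called at 1 day, 2 at 2 days, 1 at 2 weeks, 2 at 3 h, 2 at 4 days, 1 in aggregates against dediHeps, 1 in aggregates against FH, 4 in dediHep-SOs against FH, 5 in dediHep-SOs against FIPC-SOs, 1 in ISC-BOs against FIPC-SOs, 6 in FIPC-SOs against FH, 4 in dediHep-BOs against dediHep-SOs and 3 for the difference of the organoid steps. Without this threshold, calls over all genes also rose, by 1.51 to 3.59 times in the 21 comparisons other than verteporfin against DMSO. Library totals gave 1 at 2 weeks, 1 in aggregates against FH, 3 in dediHep-SOs against FH, 6 in FIPC-SOs against FH and 4 in dediHep-SOs against FIPC-SOs. With all libraries in 1 fit, 0 were called at 4 days, 2 in aggregates against dediHeps, 1 in aggregates against FH, 2 in dediHep-SOs against dediHeps, 3 in dediHep-SOs against FH, 7 in FIPC-SOs against FH and 1 in ISC-BOs against FIPC-SOs. Without the count filter these were 0 at 4 days, 1 in aggregates against FH, 2 in dediHep-SOs against dediHeps, 5 in dediHep-SOs against FIPC-SOs, 7 in FIPC-SOs against FH and 1 in ISC-BOs against FIPC-SOs. The UMI correction gave 0 at 4 days and 4 in dediHep-SOs against FIPC-SOs, and DESeq2 gave 1 in aggregates against dediHeps. Calls over all genes moved too in the comparisons named. They were 0.979 to 1.29 times the main count with library totals and 1.12 to 1.72 times with 1 fit. Without the filter they were 1.21 to 1.98 times the main count, with the UMI correction 1.01 and 1.04 times and with DESeq2 1.07 times.

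The replicate block gave 1 in CLiPs against dediHeps and 1 in ISC-BOs against FIPC-SOs, where samples share only a number, and changed the count in no other comparison. With the block, calls over all genes were 0.79 times the main count for CLiPs against dediHeps and 0.96 times for ISC-BOs against FIPC-SOs. Over libraries left out, counts ran from 0 to 1 at 3 h, 4 days, 1 week and in aggregates against dediHeps or FH, from 1 to 2 in CLiPs against FH and dediHep-SOs against dediHeps, and from 0 to 2 in CLiPs against dediHeps, dediHep-BOs against ISC-BOs and ISC-BOs against FIPC-SOs. They ran from 2 to 3 in dediHep-BOs against dediHep-SOs, 2 to 4 in dediHep-SOs against FH, 3 to 5 in dediHep-SOs against FIPC-SOs, 5 to 6 in FIPC-SOs against FH and 5 to 7 in ISC-BOs against FH. Calls over all genes moved as well when libraries were left out. At 3 h they ran from 620 to 1527 (860 with all libraries) and in CLiPs against dediHeps from 109 to 488 (352).

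Over all genes, calls between verteporfin and DMSO went from 28 to 0 with all libraries in 1 fit and to 59 with the block, and between CLiPs and dediHeps from 352 to 537 with DESeq2. Isx passed the count filter in no comparison of the main fits, but it did so with all libraries in 1 fit, where all 8 factors were tested.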
